A study of Mus musculus with 41 samples.

Results

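Treg cells of chimeric mice whose sorted cells carried floxed Uhrf1 were compared with Treg cells of controls, in 8 of the 41 RNA-seq libraries of the series. The members were chosen by their labels: 4 libraries of chimeric knockouts (KO1 to KO4) and 4 of controls (C1 to C4), each called a biological replicate. Chimeric knockouts had the genotype Uhrf1fl/flFoxp3+/YFP-Cre, with 2 floxed Uhrf1 alleles and the Cre transgene at 1 of the X-linked Foxp3 loci. Controls had the genotype Uhrf1+/+Foxp3YFP-Cre/YFP-Cre, with intact Uhrf1 and the transgene at both Foxp3 loci. Every animal thus carried Foxp3-YFP-Cre, and all were described as female and 8 weeks old. In all 8 libraries the cells were sorted as CD25hi Foxp3-YFP+ and total RNA was sequenced.

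UHRF1 recognises hemimethylated CpG sites behind the replication fork and recruits the maintenance methyltransferase DNMT1, which copies the methylation pattern onto the new strand. Treg cells are CD4 T cells that restrain immune responses under the transcription factor FOXP3, and part of their gene programme is tied to DNA methylation patterns. Foxp3 lies on the X chromosome, so random X inactivation in a female with Cre at 1 Foxp3 locus leaves some Treg cells with Cre and some without. Only the Cre-bearing cells show the reporter, and these mice keep Treg cells with intact Uhrf1 that were not sorted. Controls, with Cre at both Foxp3 loci, hold no such second group of Treg cells. The number of Cre alleles per animal also differs between the groups. Floxed Uhrf1 therefore cannot be told apart here from the presence of unsorted intact Treg cells or from the number of Cre alleles.

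The libraries held 2403189 to 4594977 counts in chimeric knockouts and 3141687 to 5709702 counts in controls. All were rich in transcripts that define Treg cells: Foxp3 was at 732, 527, 689 and 767 counts per 1000000 counts of the library (CPM) in KO1 to KO4, against 484, 453, 523 and 623 CPM in C1 to C4. The groups overlapped in Foxp3, and the difference did not pass the test (log2 fold change 0.38 ± 0.13 (SE), adjusted p = 0.176 by edgeR's quasi-likelihood test with Benjamini-Hochberg adjustment, and 0.0178 by DESeq2). It passed in other alternatives: without KO2 (log2 fold change 0.49, adjusted p = 0.000959), without C4 (0.49, 0.0378), without KO4, C3 and C4 (0.47, 0.0396), with no low-count filter (3.93e-05), with the replicate number as a block (0.0106) and with a B cell marker term (0.0262). Without KO1, KO3, KO4, C1, C2 or C3 alone the adjusted p was 0.245 to 0.364. Defining markers of B cells and plasma cells summed to 18.7 to 31.2 CPM in chimeric knockouts, against 12.7 and 19.8 CPM in C1 and C2 and 186 and 182 CPM in C3 and C4. Of 13 such markers, none was at 0 in C3 and C4, while 2 to 7 were at 0 in each of the other libraries. A sum of G2/M core genes, a list chosen after seeing the data, was at 176 to 357 CPM in chimeric knockouts, against 290.5 and 248 CPM in C1 and C2 and 720.0 and 626 CPM in C3 and C4. C1, described as female, held 430.5 CPM of Y-linked transcripts, and the other libraries at most 1.52 CPM. The part of these differences in the results below was not tested beyond the values given without the libraries concerned and the counts of calls with a B cell marker term or a G2/M term in the fit.

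Uhrf1 itself was at 11.96, 8.66 and 9.27 CPM in KO1 to KO3, 22.3 CPM in the library labelled chimeric knockout 4, and 32.5, 22.4, 23.4 and 22.3 CPM in C1 to C4. KO1 to KO3 lay below every control and the library labelled chimeric knockout 4 lay at the level of C4, against its label. In this text KO4 always means the library labelled chimeric knockout 4, and each direction that includes it rests on that label. No source used here names the floxed exons, and a count over the whole gene is a partial check of their deletion. Over all 8 libraries Uhrf1 had a log2 fold change of -0.95 ± 0.25 (adjusted p = 0.0378). Without KO4 it was -1.33 (adjusted p = 0.000748). KO4 was left out in that repeat because of its Uhrf1 level, so for Uhrf1 this value is no separate support. The call was lost without any other single library (adjusted p of 0.0608 to 0.162) and without C3 and C4 together (log2 fold change -1.06, adjusted p = 0.127).

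**Figure D1:**
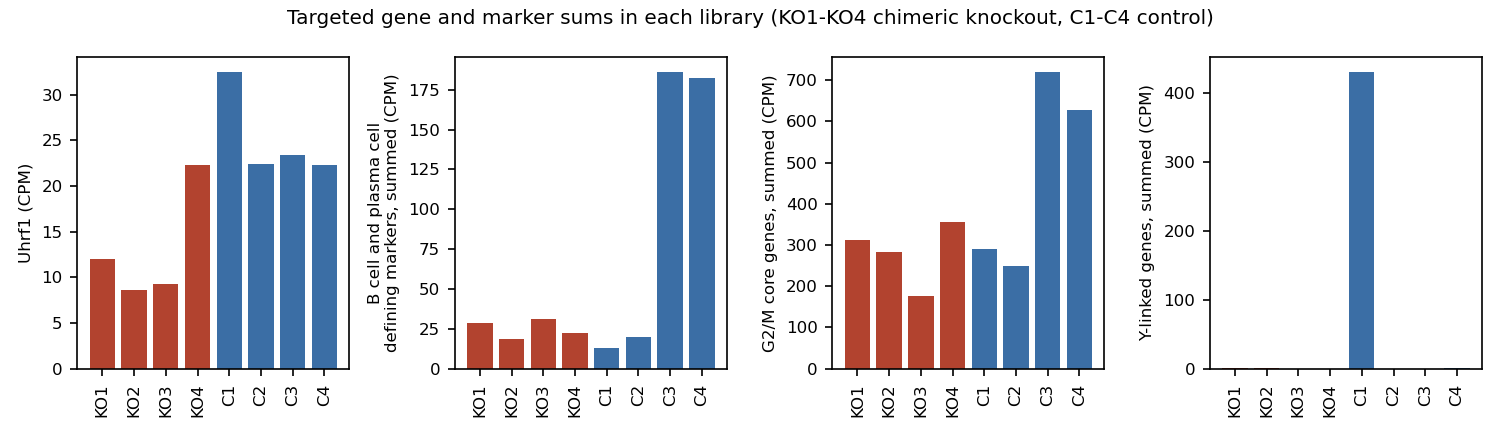
Uhrf1 level and summed markers in each library, in CPM, 1 bar per library, with chimeric knockouts KO1 to KO4 in red and controls C1 to C4 in blue. Uhrf1 was at 22.3 CPM in the library labelled chimeric knockout 4, and C3, C4 and C1 stood apart in the marker sums.

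Of 9569 genes tested, 231 passed an adjusted p of 0.05 (2.41%), 82 higher (0.857%) and 149 lower (1.56%) in chimeric knockouts. Most differences were modest: 106 called genes differed by less than 1.5-fold (52 higher, 54 lower) and 66 by at least 2-fold (10 higher, 56 lower). Without KO4, 352 genes passed (3.63% of those tested), 124 higher (1.28%) and 228 lower (2.35%). Without C3 and C4, 95 passed (0.962%), 29 higher (0.294%) and 66 lower (0.668%). Without all 3 libraries 236 passed (2.4%), 79 higher (0.802%) and 157 lower (1.59%). A core of 67 genes (14 higher, 53 lower) passed in all 8 libraries, without KO4 and without C3 and C4. Single libraries moved the count by more than 1.5 times in most cases: it was 150 without KO1, 100 without KO2, 164 without KO3, and 118, 150, 115 and 121 without C1, C2, C3 and C4. Calls that held without each single library in turn numbered 70 (20 higher, 50 lower). These p-values measure the spread between mice of this experiment.

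The library labelled chimeric knockout 4 lay between the groups. For each library, the genes called in the other libraries were read in the one left out, on a scale where 0 is the mean of the controls and 1 the mean of the chimeric knockouts in the fit. Over the 352 genes called without it, KO4 had a median position of 0.45, and 155 of them (44.0%) lay nearer to the chimeric knockouts. KO1, KO2 and KO3 had median positions of 0.74, 1.33 and 0.69, with 70.7%, 92% and 73.2% of genes on the side of the chimeric knockouts. Their gene sets were smaller (150, 100 and 164 genes), and the knockout mean of their scale included KO4. The positions of KO4 and of KO1 to KO3 are therefore not strictly on the same scale. C1 to C4 had medians of 0.067, 0.23, 0.13 and 0.12, with 82.7% to 86.8% of genes on the side of the controls. KO4 thus shared part of the difference while its Uhrf1 level was that of a control. Genes on which KO4 went with KO1 to KO3, and genes on which it did not, are given gene by gene below.

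**Figure D2:**
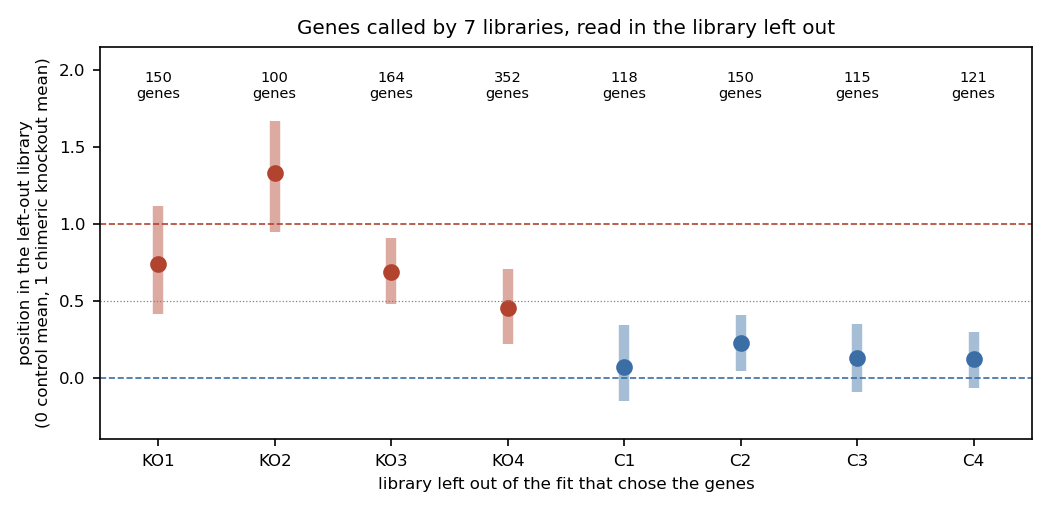
Position of each left-out library for the genes called without it, where 0 is the control mean and 1 the chimeric knockout mean. Dots are medians and bars the interquartile range over the number of genes written above; KO4 lies midway at 0.45, KO1 to KO3 above 0.5 and the controls below.

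Mnd1 had the highest contrast between the groups. It encodes a partner of HOP2 (Psmc3ip) in the strand exchange of meiotic recombination, a role of germ cells, and it lies outside the rule for naming genes and was chosen after its values were seen. Mnd1 (mm10, chromosome 3, 84087934 to 84155786, minus strand) had 37, 92, 50 and 80 counts in KO1 to KO4, against 0, 1, 1 and 3 counts in C1 to C4. That is 9.83 to 23.8 CPM in chimeric knockouts and 0 to 0.769 CPM in controls, with every knockout library, KO4 included, above every control. The summed counts gave 64.8 times the level per total count (exact 95% interval 27.4 to 201, counting error only). The fitted log2 fold change was 5.89 ± 0.52 (adjusted p = 1.58e-08), a size that depends on the prior count because the controls are near 0. It passed without each single library (adjusted p of at most 1.83e-06), without C3 and C4 (1.39e-06) and by DESeq2 (1.66e-13). Its partner Psmc3ip had 19, 13, 7 and 22 counts in KO1 to KO4 and 20, 25, 24 and 13 counts in C1 to C4, with overlapping groups. Within 500 kb of Mnd1 the other genes tested numbered 4, and 1 of them, Trim2, was called, in the opposite direction (-1.32).

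Genes known to be silenced by promoter methylation in somatic tissues, a list that does not hold Mnd1, were mostly near 0. Of 47 germline and methylation-silenced genes in the table, 4 had enough counts to be tested and none was called. The other 43 summed to 4.50, 5.88, 13.7 and 10.2 CPM in KO1 to KO4, against 4.23, 5.60, 4.77 and 5.44 CPM in C1 to C4. KO3 and KO4 were highest, and KO1 lay within the range of the controls. Among meiotic genes, Dmc1 had 2 counts in all chimeric knockouts together and 0 in all controls, and Hormad1 had 5 counts in the knockouts and 1 in the controls. None of 16 imprinted genes and none of 10 genes linked to endogenous retroviruses was called. Over all genes tested 2.41% were called, so lists this small could hold none in any case.

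Among 30 tested genes of the DNA methylation machinery, none was higher and 4 were lower (13.3%, against 1.56% of all genes tested). The targeted gene Uhrf1 is 1 of these 4, so the share is not that of untargeted genes. The count of lower genes was 3 without KO4 and 1 without C3 and C4. The median log2 fold change of -0.0047 lay near that of all genes (0.00085). Dnmt1, the maintenance methyltransferase, named outside the rule, was at 255, 291, 270.1 and 255 CPM in KO1 to KO4 and 238, 256, 266 and 292 CPM in C1 to C4 (log2 fold change 0.03 ± 0.08, adjusted p = 0.927). Besides Uhrf1, the lower genes were Tet2, a 5-methylcytosine dioxygenase (-0.31 ± 0.08, adjusted p = 0.0456), Ehmt2, a histone H3 lysine methyltransferase (-0.35 ± 0.09, adjusted p = 0.0328), and Apobec1, a cytidine deaminase (-0.92 ± 0.25, adjusted p = 0.0455). All of these calls were fragile. Tet2 lost its call without any single library but KO4 (adjusted p up to 0.175), Ehmt2 without any but KO4 and C4 (up to 0.138) and Apobec1 without any but KO2 (up to 0.167). Mat2a, which makes the methyl donor S-adenosylmethionine and was chosen after its values were seen, was at 184, 208, 192 and 201 CPM in KO1 to KO4, against 147, 137, 173 and 141 CPM in C1 to C4. Every knockout library lay above every control, and the difference passed without each single library (0.40 ± 0.09, adjusted p = 0.0113, at most 0.0497 without 1 library).

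CpG sites are the substrate of the pathway that Uhrf1 serves, and promoters of called genes ranged from dense to bare in them. The windows below are the 250 bases before the most upstream start that RefSeq gives (GRCm38.p6, read 5′ to 3′ on the gene's strand, CpG in capitals). They show Mnd1 and, for each direction, the called gene with the most CpG and 1 with the fewest, among the genes described here for which a window was found. Naip6 and Nlrp1b also had 0 CpG, and Ecm1 and Ly6c1 also had 1.
Mnd1 (higher, 8 CpG, chr3:84155787-84156036, minus strand): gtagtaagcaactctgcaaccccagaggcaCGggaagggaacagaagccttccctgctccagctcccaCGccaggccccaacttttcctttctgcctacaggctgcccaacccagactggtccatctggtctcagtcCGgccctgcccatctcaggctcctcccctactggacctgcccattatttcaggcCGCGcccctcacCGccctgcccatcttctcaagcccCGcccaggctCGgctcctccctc
Bcl2 (higher, 36 CpG, chr1:106714291-106714540, minus strand): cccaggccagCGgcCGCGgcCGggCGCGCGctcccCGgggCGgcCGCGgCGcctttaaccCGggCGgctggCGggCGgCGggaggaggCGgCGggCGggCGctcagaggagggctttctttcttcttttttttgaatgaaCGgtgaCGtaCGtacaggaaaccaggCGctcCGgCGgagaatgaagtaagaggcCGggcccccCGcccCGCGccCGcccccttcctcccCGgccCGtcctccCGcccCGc
Ccr2 (higher, 1 CpG, chr9:124101933-124102182, plus strand): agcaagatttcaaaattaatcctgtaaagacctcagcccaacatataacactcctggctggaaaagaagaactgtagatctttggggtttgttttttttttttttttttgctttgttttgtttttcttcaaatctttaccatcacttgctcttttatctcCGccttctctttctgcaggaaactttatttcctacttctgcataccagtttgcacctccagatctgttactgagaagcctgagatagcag
Tet2 (lower, 51 CpG, chr3:133544391-133544640, minus strand): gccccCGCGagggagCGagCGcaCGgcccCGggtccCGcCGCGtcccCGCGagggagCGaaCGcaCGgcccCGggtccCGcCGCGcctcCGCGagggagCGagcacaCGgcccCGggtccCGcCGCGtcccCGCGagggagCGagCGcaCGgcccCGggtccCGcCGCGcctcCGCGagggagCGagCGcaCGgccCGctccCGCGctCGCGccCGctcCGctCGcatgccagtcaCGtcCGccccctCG
Naip2 (lower, 0 CpG, chr13:100202123-100202372, minus strand): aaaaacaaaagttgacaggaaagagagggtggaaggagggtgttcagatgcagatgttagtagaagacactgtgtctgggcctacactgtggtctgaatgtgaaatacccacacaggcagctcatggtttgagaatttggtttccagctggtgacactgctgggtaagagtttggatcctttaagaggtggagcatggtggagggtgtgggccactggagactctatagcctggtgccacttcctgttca
The Mnd1 window had an intermediate CpG count, with an observed over expected ratio of 0.37, against 1.03 for Bcl2, 0.12 for Ccr2, 1.19 for Tet2 and 0 for Naip2. Windows were found for 63 of the 82 genes called higher (76.8%) and 119 of the 149 called lower (79.9%), under the 80% needed. A comparison of CpG content between called and all genes is therefore void and is not given. Methylation was not measured in these libraries.

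Treg identity genes split. Of 41 tested, 3 were higher (7.32%, against 0.857% of all genes tested) and 4 were lower (9.76%, against 1.56%). Il2ra and Ctla4, like Foxp3, did not pass in the 8 libraries. Il2ra, the high-affinity interleukin 2 receptor chain, was at 1021 to 1377 CPM in chimeric knockouts and 1033 to 1212 CPM in controls. Ctla4, an inhibitory receptor, was at 157 to 236 CPM in chimeric knockouts and 201 to 224 CPM in controls. Gpr83, an orphan G protein-coupled receptor enriched in Treg cells, was at 316, 248, 249 and 253 CPM in KO1 to KO4, against 176, 162, 133 and 141 CPM in C1 to C4. The groups were far apart and KO4 stood among the other chimeric knockouts (0.80 ± 0.10, adjusted p = 5.8e-06). Ecm1, a secreted matrix protein, was at 168, 174, 202 and 194 CPM in KO1 to KO4, against 129, 133, 96.5 and 113 CPM in C1 to C4, again without overlap (0.64 ± 0.10, adjusted p = 0.0002). Both calls held without each single library and without C3 and C4 (adjusted p of at most 0.0208).

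The lower identity genes were surface molecules and a cytokine subunit. Nrp1, a semaphorin and VEGF coreceptor found on thymus-derived Treg cells, was at 342, 232, 265 and 320.2 CPM in KO1 to KO4, against 488, 499, 501 and 461 CPM in C1 to C4 (-0.75 ± 0.09, adjusted p = 5.88e-05). Ebi3, the shared subunit of interleukins 27 and 35, was at 5.58, 2.22, 3.37 and 7.74 CPM in KO1 to KO4, against 18.5, 22.4, 29.7 and 16.7 CPM in C1 to C4 (-2.20 ± 0.31, adjusted p = 7.27e-05). Every knockout library lay below every control in both. The ectoenzymes CD73 (Nt5e), which makes adenosine from AMP, and CD39 (Entpd1), which breaks down extracellular ATP, were both lower. Nt5e was at 190.3, 131, 178 and 207 CPM in KO1 to KO4, against 313, 272, 263 and 271 CPM in C1 to C4 (-0.67 ± 0.11, adjusted p = 0.00202). Entpd1 was at 24.9 to 43.4 CPM in chimeric knockouts and 47.0 to 60.1 CPM in controls (-0.60 ± 0.16, adjusted p = 0.0354), a call lost without KO2, C1, C3 or C4 (adjusted p up to 0.199). Nrp1, Ebi3 and Nt5e held without each single library and without C3 and C4 (adjusted p of at most 0.0269). In bulk RNA, fewer cells with a transcript and less of it per cell cannot be told apart.

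**Figure D3:**
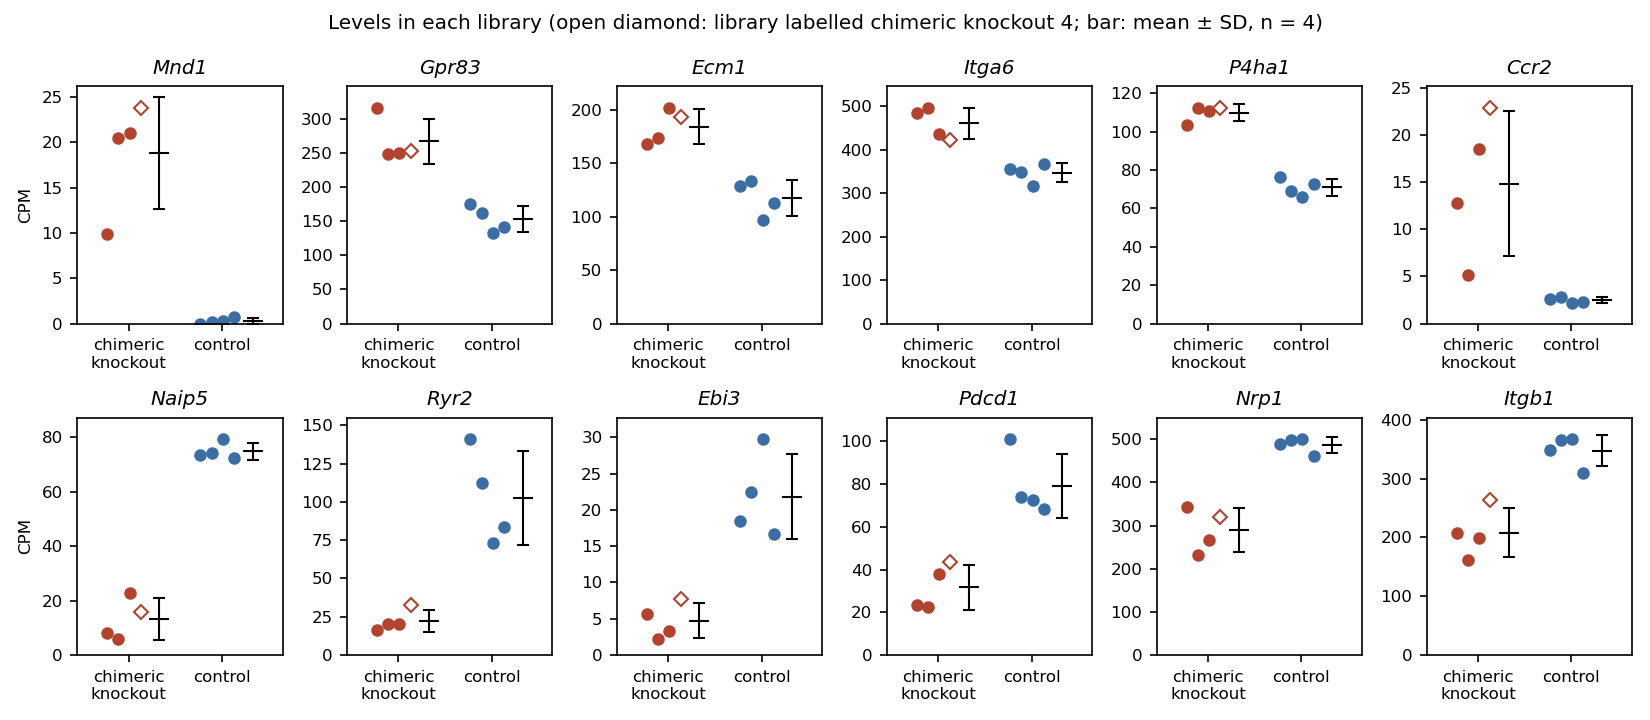
Levels in CPM of 12 genes in each library, chimeric knockouts left and controls right, with the mean ± SD (n = 4) beside the points. The 12 genes are a selection from those described, not a sample of the called genes. In none of them do the groups overlap, and the open diamond of the library labelled chimeric knockout 4 lies on the side of KO1 to KO3. Over all genes tested 3.42% had every knockout library above every control and 4.71% below. Of the 352 genes called without KO4, 44.0% lay nearer to the chimeric knockouts in KO4. Klf2 and Pde3b, not drawn, had KO4 within the controls.

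Genes of naive and central T cells were called higher and not lower. Of 33 tested, 10 were higher (30.3%, against 0.857% of all genes tested), and 30 of 33 had a positive log2 fold change, with a median of 0.28. S1pr1, which guides T cells out of lymphoid tissue, was at 647, 727, 579 and 499 CPM in KO1 to KO4, against 437, 472, 407 and 426 CPM in C1 to C4, with KO4 nearest to the controls (0.49 ± 0.09, adjusted p = 0.00297). The transcriptional repressor Bach2 showed the same order, at 295 to 376 CPM in chimeric knockouts and 248 to 272 CPM in controls, again with KO4 lowest of the knockouts. Itm2a, a membrane protein induced during thymocyte selection, was at 52.9, 71.3, 54.4 and 73.6 CPM in KO1 to KO4, against 41.9, 41.7, 32.0 and 30.2 CPM in C1 to C4, with KO4 highest.

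The quiescence factor Klf2, the survival gene Bcl2 and the surface antigen gene Ly6c1 also passed. Klf2 was at 388, 476 and 404 CPM in KO1 to KO3 and 302 CPM in KO4, against 276 to 317 CPM in C1 to C4, so that KO4 lay within the controls. Its adjusted p was 0.0498, with losses without any single library but KO4 (up to 0.138) and 0.000185 without KO4. Bcl2 was at 568 to 650.0 CPM in chimeric knockouts and 462 to 521 CPM in controls (0.28 ± 0.07, adjusted p = 0.0274, lost without KO1, KO2, C1, C3 or C4 with up to 0.125). Ly6c1 was at 24.1 to 48.9 CPM in chimeric knockouts and 15.1 to 19.4 CPM in controls (0.93 ± 0.20, adjusted p = 0.00932, lost without KO2 with 0.125). Without C3 and C4 the calls of S1pr1 (adjusted p = 0.127), Bach2 (0.0959), Itm2a (0.0959), Klf2 (0.349), Bcl2 (0.17) and Ly6c1 (0.154) were lost. Their log2 fold changes in that fit, in the same order, were 0.44, 0.34, 0.60, 0.41, 0.25 and 0.80. Without KO4, C3 and C4, S1pr1 (0.00203), Bach2 (0.0148), Klf2 (0.0046) and Ly6c1 (0.0447) passed, and Itm2a (0.129) and Bcl2 (0.102) did not. The count of higher genes was 13 without KO4 and 2 without C3 and C4, and 10 without all 3 libraries. Satb1, a chromatin organiser of T cells, was at 818 to 1150.2 CPM in KO1 to KO3, 628 CPM in KO4 and 506 to 646 CPM in controls. It was not called in the 8 libraries (adjusted p = 0.186) and had an adjusted p of 0.00107 without KO4.

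Calls among effector Treg genes were mostly lower. Of 43 tested, 8 were lower (18.6%, against 1.56% of all genes tested) and 1 was higher (2.33%, against 0.857%). Of the 43, 37 had a negative log2 fold change, and the median was -0.48. Itgb1, the integrin beta 1 chain, was at 207, 162, 199.7 and 264 CPM in KO1 to KO4, against 349, 366, 367 and 309.6 CPM in C1 to C4 (-0.74 ± 0.11, adjusted p = 0.00159). Every knockout library lay below every control, with KO4 and C4 nearest each other, and the call held without each single library (adjusted p of at most 0.0159) and without C3 and C4 (0.0239). Id2, an inhibitor of E proteins, was at 11.2, 7.77 and 15.6 CPM in KO1 to KO3 and 24.4 CPM in KO4, against 29.0 to 33.0 CPM in C1 to C4 (-1.09 ± 0.24, adjusted p = 0.0165). Gata3, a transcription factor of Th2 cells and of tissue Treg cells, was at 143 to 193 CPM in chimeric knockouts and 209 to 278 CPM in controls (-0.46 ± 0.10, adjusted p = 0.0118). The activation antigen Cd44 was at 102 to 143 CPM in chimeric knockouts and 145 to 208 CPM in controls (-0.51 ± 0.12, adjusted p = 0.0197). Itgb8, which helps to activate latent TGF-beta, was at 47.1 to 76.5 CPM in chimeric knockouts and 83.2 to 118 CPM in controls (-0.64 ± 0.15, adjusted p = 0.032). None of these 4 overlapped between the groups, and 4.71% of all genes tested had every knockout library below every control. Each of the 4 depended on single libraries. The call was lost for Id2 without KO1, KO2, KO3, C2, C3 or C4 (adjusted p up to 0.0797), for Gata3 without KO1, KO2 or C1 (up to 0.0751), for Cd44 without KO1, KO2, KO3 or C1 (up to 0.0838), and for Itgb8 without KO1, KO2, KO3, C1 or C2 (up to 0.101). Without KO4, 14 genes of the list were lower, and without C3 and C4, 7 were.

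The higher gene of that list was Ccr2, a chemokine receptor known from monocytes and effector T cells. It was at 12.8, 5.11, 18.5 and 22.9 CPM in KO1 to KO4, against 2.61, 2.83, 2.21 and 2.31 CPM in C1 to C4. KO4 was the highest of all, and no library overlapped (2.52 ± 0.41, adjusted p = 0.00034, at most 0.00401 without 1 library and 0.027 without C3 and C4). The neighbouring receptor gene Cxcr6, 295 kb away, went the other way: it had 0 counts in KO1 to KO3 and 5 counts in KO4, against 20, 23, 19 and 12 counts in C1 to C4. Cxcr6 had an adjusted p of 0.0209, which rose to as much as 0.103 without KO1, KO2, KO3, C1, C2 or C3, each of which ended the call. Of 22 chemokine receptor genes tested, 2 were higher (9.09%, against 0.857% of all genes tested) and 3 lower (13.6%, against 1.56%). Ccr6, a receptor of Th17 and B cells, was at 13.8 to 22.9 CPM in chimeric knockouts and 22.1 to 33.1 CPM in controls (-0.74 ± 0.20, adjusted p = 0.0387, lost without any single library but KO4 and C2, up to 0.17). Ccr7, the lymph node homing receptor, was at 169 to 239 CPM in chimeric knockouts and 153 to 168 CPM in controls and was not called (adjusted p = 0.195).

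Follicular helper genes were called lower and not higher. Of 21 tested, 5 were lower (23.8%, against 1.56% of all genes tested), all 21 had a negative log2 fold change, and the median was -0.42. The count of lower genes was 8 without KO4 and 4 without C3 and C4. Pdcd1, which encodes the inhibitory receptor PD-1, was at 23.4, 22.4, 37.9 and 43.5 CPM in KO1 to KO4, against 101, 74.0, 72.8 and 68.2 CPM in C1 to C4. Tox2, a nuclear factor of follicular helper cells, was at 3.46, 5.33, 8.43 and 11.6 CPM in KO1 to KO4, against 29.3, 24.0, 20.9 and 36.1 CPM in C1 to C4. In both genes KO4 was the highest of the chimeric knockouts and still below every control, and both passed without each single library (adjusted p of at most 0.00694) and without C3 and C4 (0.00851 and 0.00382). Cxcr5, the follicle homing receptor, was at 32.4 to 51.5 CPM in chimeric knockouts, against 63.0 and 55.7 CPM in C1 and C2 and 76.6 and 72.0 CPM in C3 and C4, the controls with more B cell transcripts. Its call (-0.62 ± 0.14, adjusted p = 0.0152) was lost without KO2, C3 or C4 (up to 0.101), without C3 and C4 together (0.288) and with a B cell marker term. The part of the B cell transcripts in it was not tested further.

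Inhibitory receptors and ectoenzymes gave 4 lower genes (23.5%, against 1.56% of all genes tested) and no higher gene of 17, with a median of -0.41. Besides Pdcd1, Nt5e and Entpd1 the list held Lilrb4, an immunoglobulin-like inhibitory receptor, at 1.33, 0.444, 4.21 and 1.19 CPM in KO1 to KO4 and 14.0, 6.18, 6.01 and 5.13 CPM in C1 to C4. Its adjusted p of 0.0202 was lost without KO1, KO2 or C1 (up to 0.185). None of 13 TNF receptor superfamily genes was called (against 2.41% of all genes tested), 9 of them with a negative log2 fold change. Of 19 Th1 and cytotoxic genes, 2 were higher (10.5%, against 0.857% of all genes tested) and 1 was lower (5.26%, against 1.56%). Cst7, which encodes the protease inhibitor cystatin F, was at 26.0, 25.5, 40.4 and 40.8 CPM in KO1 to KO4, against 76.03, 56.4, 48.4 and 52.0 CPM in C1 to C4 (-0.84 ± 0.17, adjusted p = 0.00757), and held without each single library (at most 0.046). Eomes, a transcription factor of cytotoxic cells, was at 8.66 to 34.6 CPM in chimeric knockouts and 4.10 to 8.83 CPM in controls, with overlap (adjusted p = 0.0304, lost without KO1, KO3, C1, C3 or C4, up to 0.124). Ifngr1, a chain of the interferon gamma receptor, was at 187 to 243 CPM in chimeric knockouts and 139 to 177 CPM in controls (0.41 ± 0.09, adjusted p = 0.0148, lost without KO1, C1 or C2, up to 0.088).

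Integrin and adhesion genes included 2 higher (6.06%, against 0.857% of all genes tested) and 6 lower (18.2%, against 1.56%) of 33. Itga6, an integrin chain of laminin receptors, was at 485, 497, 437 and 424 CPM in KO1 to KO4, against 356, 349, 316 and 367 CPM in C1 to C4 (0.41 ± 0.07, adjusted p = 0.00139). Itgal, the alpha chain of LFA-1, was at 607, 601, 718 and 730.0 CPM in KO1 to KO4, against 1001, 907, 848 and 874 CPM in C1 to C4 (-0.45 ± 0.07, adjusted p = 0.000376). The groups did not overlap in either gene, and both held without each single library and without C3 and C4 (adjusted p of at most 0.0266). Cd226, an activating receptor for nectin-family ligands, was at 52.4 to 80.9 CPM in chimeric knockouts and 88.4 to 104 CPM in controls, with KO4 the lowest of all 8. It was called at an adjusted p of 0.0118, lost without KO2 or C3 (up to 0.0637) and without C3 and C4 together (0.103). Across the genome 327 tested genes (3.42%) had every knockout library above every control, and 451 (4.71%) had every knockout library below.

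**Figure D4:**
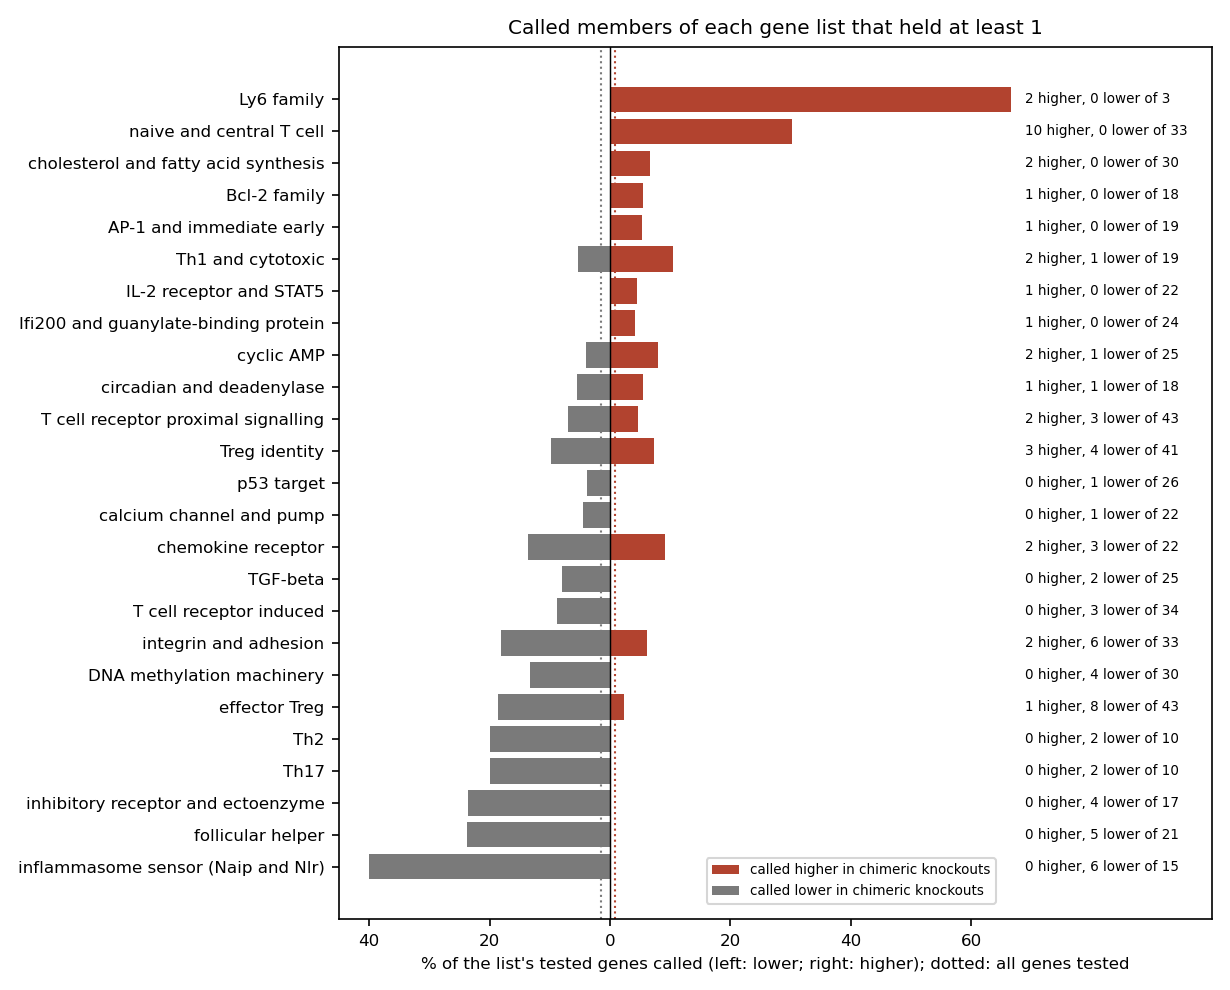
Percent of the tested genes of each list called higher (right, red) or lower (left, grey) in chimeric knockouts, for the lists with at least 1 called gene, with the counts written out. Dotted lines give the percent over all genes tested, 0.857% higher and 1.56% lower; naive and central T cell genes lie to the right, and inflammasome sensor and follicular helper genes to the left.

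The largest share of lower genes was in the list of inflammasome sensors and their caspases. Of 15 tested, 6 were lower (40%, against 1.56% of all genes tested) and none higher, with a median of -0.58. The 6 include the neighbouring paralogs Naip2, Naip5 and Naip6 and the neighbours Casp1 and Casp4. The share thus does not rest on 6 separate loci. The count of lower genes was 4 without KO4 and 5 without C3 and C4. NAIP proteins bind bacterial flagellin and secretion system subunits and activate caspase-1, chiefly in macrophages and epithelium. Naip5 was at 8.24, 6.00, 22.8 and 15.8 CPM in KO1 to KO4, against 73.4, 74.2, 79.4 and 72.5 CPM in C1 to C4 (-2.59 ± 0.30, adjusted p = 0.00139). Naip6 was at 24.98, 9.996, 19.4 and 18.2 CPM in KO1 to KO4, against 66.0, 65.0, 79.4 and 80.5 CPM in C1 to C4 (-2.02 ± 0.19, adjusted p = 6.17e-07). Naip2 was at 11.2, 7.55, 15.6 and 19.96 CPM in KO1 to KO4, against 41.3, 31.3, 37.0 and 39.2 CPM in C1 to C4 (-1.48 ± 0.22, adjusted p = 0.000139). The controls were close to each other, and KO4 stayed with the other chimeric knockouts in all 3 genes. They are near-identical paralogs, so reads may have been split among them and their separate values are uncertain. All 3 held without each single library (adjusted p of at most 0.00949) and without C3 and C4 (at most 0.0299).

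The Naip genes lie side by side on chromosome 13 (mm10, Naip2 at 100144063 to 100202092, Naip5 at 100211739 to 100246323 and Naip6 at 100281121 to 100317674, all minus strand). Within 1 Mb of Naip5, 15 other genes were tested, and Naip2 and Naip6 were the ones called. The nearest outer gene, Smn1, had a log2 fold change of 0.28 (adjusted p = 0.601). Nlrp1b, a sensor of anthrax lethal factor on another chromosome, was at 10.6, 6.22, 14.3 and 8.34 CPM in KO1 to KO4, against 20.1, 25.8, 38.3 and 33.6 CPM in C1 to C4. It too held without each single library (-1.60 ± 0.25, adjusted p = 0.0002, at most 0.00359). The inflammatory caspase genes Casp1 (-0.86 ± 0.24, adjusted p = 0.0497) and Casp4 (-0.78 ± 0.21, adjusted p = 0.0405) overlapped between the groups. Casp1 lost its call without any single library but KO1 (up to 0.227) and Casp4 without any but KO1 and C4 (up to 0.18).

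**Figure D5:**
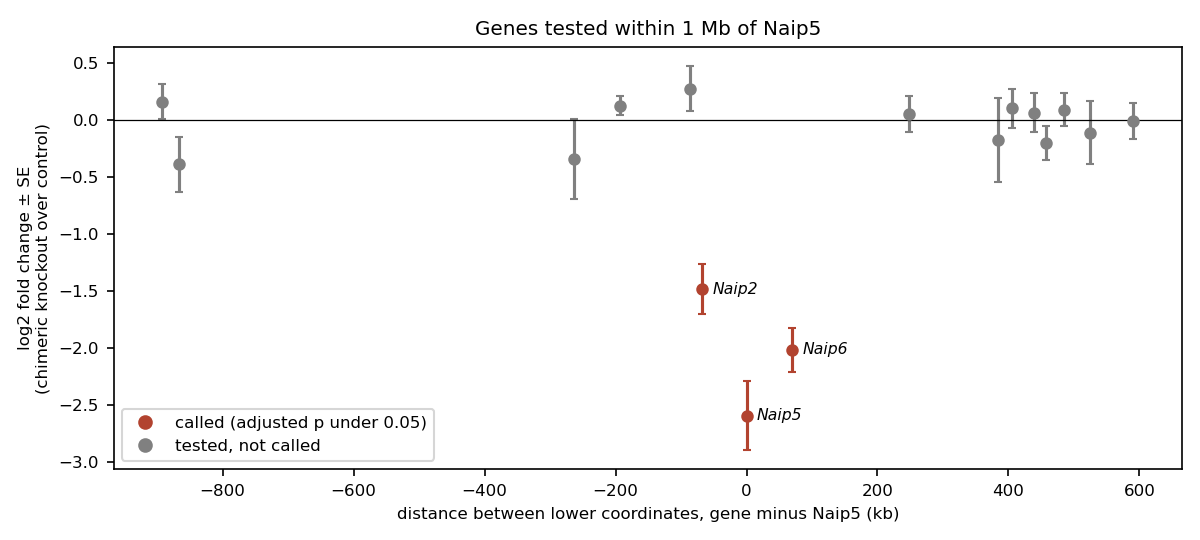
Log2 fold change ± SE (chimeric knockout over control) of every tested gene within 1 Mb of Naip5, against its distance from Naip5 in kb. Naip2, Naip5 and Naip6 lie between -1.48 and -2.59, and the uncalled neighbours lie near 0.

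Macrophages express Naip genes, so markers of that type were read beside them. Summed macrophage and monocyte markers were at 359, 278, 385 and 449 CPM in KO1 to KO4, against 349, 349, 449 and 469 CPM in C1 to C4, and Ctss gave most of the sum in every library. The defining gene Csf1r had 39, 19, 38 and 24 counts in KO1 to KO4, against 19, 8, 33 and 70 counts in C1 to C4. Lyz2 had 23, 24, 4 and 12 counts in KO1 to KO4, against 13, 8, 26 and 76 counts in C1 to C4. The part of macrophage transcripts in the Naip values was not tested. Of the 10 markers tested, 7 had a positive log2 fold change and none was called. Cybb, the oxidase subunit gp91phox, stood out among them at 18.1, 5.11, 18.96 and 27.4 CPM in KO1 to KO4, against 55.4, 57.4, 66.8 and 65.9 CPM in C1 to C4. The groups did not overlap, but the difference missed the threshold (-1.85 ± 0.39, adjusted p = 0.0598, and 0.0075 without KO4). Cybb lies on the X chromosome 1.86 Mb from Foxp3, the locus of the Cre allele.

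Genes of T cell receptor signalling and its targets were called in small numbers. Of 43 proximal signalling genes, 2 were higher (4.65%) and 3 lower (6.98%), and of 34 receptor-induced genes, 3 were lower (8.82%) and none higher. Over all genes tested 0.857% were higher and 1.56% lower. Nfatc1, a calcium-regulated transcription factor, was at 375, 388, 421 and 409 CPM in KO1 to KO4, against 613, 511, 546 and 565 CPM in C1 to C4. Rgs16, an inhibitor of G protein signalling, was at 6.38, 12.4, 11.8 and 15.2 CPM in KO1 to KO4, against 39.7, 35.5, 18.3 and 29.7 CPM in C1 to C4. The groups were separate in both genes (-0.49 ± 0.07, adjusted p = 9.37e-05, and -1.45 ± 0.25, adjusted p = 0.0013), and both held without each single library (at most 0.0103). The phosphatase gene Ptpn22 was at 210.3 to 262 CPM in chimeric knockouts and 292 to 309 CPM in controls (-0.34 ± 0.08, adjusted p = 0.0166, lost without KO2, KO3, C2 or C3, up to 0.0915). Egr2, a brake on T cell activation, was at 42.0 to 74.6 CPM in chimeric knockouts and 77.9 to 97.1 CPM in controls (-0.62 ± 0.15, adjusted p = 0.0329, lost without any single library but KO3 and KO4, up to 0.123). Immediate early genes set libraries apart within both groups. Jun, an AP-1 subunit, was at 26.3, 22.7, 310.1 and 125 CPM in KO1 to KO4, against 213, 284, 19.6 and 16.1 CPM in C1 to C4, and its partner Fos was at 9.57, 16.9, 91.4 and 39.3 CPM in KO1 to KO4, against 61.0, 99.7, 14.6 and 10.3 CPM in C1 to C4. Neither was called, and C1 and C2, the controls highest in both, were also highest in Egr2 and Rgs16. The part of this difference in the receptor-induced genes was not tested. Among genes outside the rule, chosen after their values were seen, the adaptor Lax1 (-0.68 ± 0.10, adjusted p = 0.000139), the tetraspanin Cd82 (-0.64 ± 0.09, adjusted p = 9.15e-05), the phosphatase Ptpn13 (-1.08 ± 0.11, adjusted p = 1.61e-07) and Tbc1d4, which controls glucose transporter traffic (-0.73 ± 0.09, adjusted p = 5.8e-06), were lower in every knockout library than in any control. Each of them held without each single library (adjusted p of at most 0.00178) and without C3 and C4 (at most 0.00382). Over all genes tested 4.71% were lower in every knockout library than in any control. Plk3, a stress kinase and the called gene of 26 p53 targets, was at 14.0 to 17.3 CPM in chimeric knockouts and 25.3 to 37.7 CPM in controls (-0.94 ± 0.19, adjusted p = 0.00438, at most 0.0422 without 1 library).

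Second messenger genes moved in both directions. Adcy6, an adenylyl cyclase, was at 60.6, 54.0, 46.3 and 43.5 CPM in KO1 to KO4, against 25.5, 34.1, 29.4 and 34.1 CPM in C1 to C4, while its paralog Adcy7 was at 241, 218, 225 and 236 CPM in KO1 to KO4, against 296, 273, 322 and 342 CPM in C1 to C4. Both calls held without each single library (adjusted p = 0.00568, at most 0.0382, and adjusted p = 0.00226, at most 0.0203), and Adcy7 lost its call without C3 and C4 (0.113). Pde3b, which degrades cyclic AMP, was at 35.9, 57.5 and 46.8 CPM in KO1 to KO3 and 21.1 CPM in KO4, against 15.6 to 23.4 CPM in C1 to C4. Here KO4 lay within the controls, and the call (adjusted p = 0.0444) had an adjusted p of 9.46e-05 without KO4 and was lost without any other single library (up to 0.133). Ryr2, an intracellular calcium release channel best known from heart muscle, was at 16.2, 19.99, 20.2 and 32.5 CPM in KO1 to KO4, against 141, 113, 73.4 and 83.6 CPM in C1 to C4 (-2.22 ± 0.26, adjusted p = 0.00225, at most 0.0258 without 1 library). Gnaq, the G protein alpha subunit that couples receptors to phospholipase C, was at 17.1 to 39.6 CPM in chimeric knockouts and 57.8 to 71.0 CPM in controls (-1.10 ± 0.19, adjusted p = 0.00292), and lost its call without C3 and C4 (0.0611). Without KO4, C3 and C4 the adjusted p was 0.00488 for Gnaq and 0.0672 for Adcy7.

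Of 30 genes of cholesterol and fatty acid synthesis, 2 were higher (6.67%, against 0.857% of all genes tested) and none lower, with a median of 0.19. Fdps, which makes farnesyl diphosphate, was at 21.0, 32.9, 30.8 and 21.7 CPM in KO1 to KO4, against 15.4, 14.5, 19.3 and 13.6 CPM in C1 to C4 (0.77 ± 0.21, adjusted p = 0.0387). Cyp51, the lanosterol demethylase, was at 49.1 to 69.3 CPM in chimeric knockouts and 30.4 to 48.7 CPM in controls (0.58 ± 0.15, adjusted p = 0.0354). Fdps was lost without KO2, KO3, C1, C2 or C4 (up to 0.204), and Cyp51 without KO1, KO2, KO3, C3 or C4 (up to 0.16). Without KO4, 5 genes of the list were higher, and without C3 and C4 none was.

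Other large called differences among abundant genes are given next, most of them in genes outside the lists. Ccrn4l belongs to the list of circadian and deadenylase genes. Of its 18 tested genes, 1 was higher (5.56%, against 0.857% of all genes tested) and 1 lower (5.56%, against 1.56%). Bmpr2 belongs to the TGF-beta list, where 2 of 25 were lower (8%, against 1.56%) and none higher. Wdr31 was at 104, 199, 189.6 and 202 CPM in KO1 to KO4, against 25.3, 25.1, 50.3 and 48.2 CPM in C1 to C4 (2.26 ± 0.35, adjusted p = 0.0328). Ccrn4l, a circadian gene that encodes nocturnin, was at 989, 1634, 1492 and 1455 CPM in KO1 to KO4, against 373, 426, 636 and 525 CPM in C1 to C4 (1.51 ± 0.23, adjusted p = 0.0323). The groups were far apart in both. Wdr31 lost its call without any single library but KO1 (up to 0.105) and Ccrn4l without any but KO1 and C3 (up to 0.0996), and DESeq2 gave adjusted p of 6.71e-08 and 9.58e-09. P4ha1, a collagen prolyl hydroxylase subunit, was at 103, 113, 111 and 113 CPM in KO1 to KO4, against 76.4, 68.9, 65.8 and 72.8 CPM in C1 to C4 (0.63 ± 0.10, adjusted p = 0.00034), with little spread within either group.

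Several lower genes were as clear. Tnfsf11, which encodes RANK ligand, was at 16.2, 18.7, 29.9 and 21.1 CPM in KO1 to KO4, against 54.4, 51.2, 43.3 and 31.3 CPM in C1 to C4 (-1.10 ± 0.19, adjusted p = 0.00112). Zc3h12c, of the Regnase family of RNases, was at 8.77 to 12.5 CPM in chimeric knockouts and 20.5 to 35.2 CPM in controls (-1.44 ± 0.22, adjusted p = 0.0002). The palmitoyltransferase gene Zdhhc2 was at 7.33 to 14.9 CPM in chimeric knockouts and 27.5 to 42.4 CPM in controls (-1.52 ± 0.22, adjusted p = 8.37e-05). Grhl1, a transcription factor of epithelia, was at 9.83 to 10.5 CPM in chimeric knockouts and 17.7 to 27.7 CPM in controls (-1.10 ± 0.22, adjusted p = 0.00446), and Slc22a15, a solute carrier, at 7.33 to 13.5 CPM in chimeric knockouts and 17.7 to 30.2 CPM in controls (-1.17 ± 0.24, adjusted p = 0.00438). All 5, and P4ha1, held without each single library (adjusted p of at most 0.0469) and without C3 and C4 (at most 0.0443). Nav2, a neuronal navigator gene, was at 43.9, 17.99, 38.8 and 47.1 CPM in KO1 to KO4, against 186, 147, 138 and 169 CPM in C1 to C4, and held without each single library (adjusted p of at most 0.0403) but not without C3 and C4 (0.0611). Bmpr2, a receptor for bone morphogenetic proteins, was at 28.0 to 39.3 CPM in chimeric knockouts and 50.2 to 65.8 CPM in controls (-0.78 ± 0.15, adjusted p = 0.00241, and 0.0955 without C3 and C4). Without KO4, C3 and C4 the adjusted p was 0.0258 for Bmpr2 and 0.0526 for Nav2.

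Several programmes held no called gene. These were 52 type I interferon-stimulated genes, 20 genes of viral nucleic acid sensing, 30 NF-kB genes, 50 S phase genes, 42 G2/M genes, 36 polycomb genes, 25 glycolysis genes, 57 respiratory chain genes and 54 cytosolic ribosomal protein genes. Over all genes tested 2.41% were called, so lists of these sizes could hold few calls or none in any case. Counts at an unadjusted p are not given for single lists, and 1283 genes of all tested had an unadjusted p under 0.05. The G2/M list had a median of -0.44, with 34 of 42 genes negative, and its core genes were highest in C3 and C4. Type I interferon genes had a median of 0.058, near that of all genes.

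Some called genes lay near each other. Of the 231, 53 (22.9%) had another called gene within 500 kb, while 15.7% of all tested genes had a called gene within that distance, a difference that was not tested. These made 30 pairs, of which 24 had the same sign. Ebi3 was the 1 called gene of 41 others tested within 1 Mb of the targeted gene Uhrf1, 351 kb away. Other pairs of the same sign were Nrp1 with Itgb1 (327 kb), Casp1 with Casp4 (10.3 kb) and Ly6c1 with Ly6a (50.1 kb), a surface antigen gene at 29.5 to 47.4 CPM in chimeric knockouts and 17.0 to 30.4 CPM in controls (0.77 ± 0.19, adjusted p = 0.0223). Ly6a and Ly6c1 have close paralogs, and the call of Ly6a was lost without KO1, KO2, KO4, C1 or C2 (up to 0.0928). Of 308 genes tested on the X chromosome, which carries the Cre allele, 3 were called (0.974%, against 2.41% of all genes tested).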

How the data were processed

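Per the labels' protocols, sorted cells were extracted with the AllPrep Micro kit and total RNA was turned into stranded SMARTer v2 libraries. The submitters' processing notes name bcl2fastq 2.17.1.14, TopHat2 2.1.0 and the mouse build mm10 (GRCm38). The authors deposited 1 table of raw counts, unnormalized, with 19434 genes. Annotation, strand and count settings are not given in the sources used here, so an antisense overlap cannot be separated from the gene itself. All 13 mitochondrial genes held 0 counts, which leaves that sign of RNA quality unread.

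The 8 libraries were tested with edgeR 4.0.16 in R 4.3.3, with TMM factors, the default expression filter and robust quasi-likelihood F-tests (2-sided). P-values were adjusted by Benjamini-Hochberg over all 9569 genes tested, with a threshold of 0.05. The common biological coefficient of variation was 0.134. Levels are CPM of the TMM-scaled library and marker sums CPM of the total count. The closest pair of libraries of a group still differed beyond counting noise (chi-square per degree of freedom 3.64). On simulated counts of this comparison (9478 genes), 80 of 100 genes changed 2-fold and 98 of 100 changed 4-fold were recovered, and 15 of 193 calls were false. The changed genes were drawn from the more abundant ones, and no simulated library was set apart as KO4, C3 and C4 were. These rates may therefore be better than those of the real comparison. Alternatives were other scalings and filters, DESeq2 1.42.0, a replicate block, marker terms and left-out libraries. The G2/M core term was chosen after seeing the data.

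The members, lists and tests were chosen with earlier results of these data known. The naming rule takes Uhrf1, Foxp3, the 20 largest called changes in each direction at a mean log2 CPM of at least 4, every called gene of a list and the 3 most abundant uncalled genes of each list. It gives 211 genes, and the text describes 69 of them and 15 outside it. Many called genes that the rule gives are left out of the text, and those that belong to a list are kept in its counts. Genes given as partners, neighbours or markers also lie outside it. Lists of 3 or fewer tested genes say little. Promoter sequences are RefSeq's. Python 3.11.15 with pandas 2.3.3 and matplotlib 3.10.9 drew the figures.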

Additional observations from a re-analysis of the deposited data

Results flagged for a closer look

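In 178 groups of 4 libraries, 7 held 1 library far from the other 3, which chance gives in about 1 of 20 groups. Among chimeric knockouts, KO1 was highest in Gpr83 (316 CPM) and lowest in Wdr31 (104 CPM), and KO4 was highest in Cxcr6 (1.49 CPM, the others at 0). Among controls, C1 was highest in Uhrf1 (32.5 CPM), in Lilrb4 (14.0 CPM) and in summed Y-linked transcripts (430.5 CPM), and C3 was lowest in Actg2 (13.9 CPM).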

How the results depend on the processing

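The count of called genes was 231, and 225 with RLE or upper-quartile factors, 224 with a CPM filter of 2 in at least 4 libraries, 318 with DESeq2, 205 with a B cell marker term and 228 with a G2/M term. It was 396 with no low-count filter, where 15530 genes were tested, 142 with a G2/M core term, 95 without C3 and C4, and 100 to 352 without a single library. Libraries with the same replicate number did not deviate together (correlations of -0.089 to 0.024). The labels do not say that the numbers mark pairs, and such correlations cannot exclude it. A fit with the number as a block called 176 genes. Uhrf1 had a log2 fold change of -0.77 to -1.33 without a single library, -1.06 without C3 and C4 (adjusted p = 0.127) and -0.91 with the G2/M core term (0.111), and -1.01 with the block (0.0459).

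Over 84 named genes and 19 alternatives, 1335 of 1596 pairs kept direction and side of the threshold, 240 lost the call, 17 gained it and 4 changed sign. Those with a changed sign were never called: Il2ra at -0.010 without KO4, C3 and C4, Ctla4 at -0.13 to 0.059 without 1 library, and Dnmt1 at -0.017 to 0.086 without 1 library. Depth limits genes near 0, such as Mnd1 and Cxcr6. With 4 libraries a group, 20 of 100 simulated 2-fold changes, drawn from the more abundant genes, were missed.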

Other observations

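Further genes held their call without each single library (adjusted p by edgeR of at most 0.0365); they were picked with those values known. Among regulators of growth, Mxd1 and Mxd4, which encode partners of MAX that oppose MYC, moved in opposite directions. Mxd1 was at 143, 166, 144 and 128 CPM in KO1 to KO4, against 103, 114, 101 and 97.9 CPM in C1 to C4 (log2 fold change 0.48 ± 0.10, adjusted p = 0.00438). Mxd4 was at 243, 245, 236 and 254 CPM in KO1 to KO4, against 336, 326, 297 and 320.1 CPM in C1 to C4 (-0.39 ± 0.07, adjusted p = 0.00252). Rb1, the retinoblastoma protein gene, was at 173 to 208 CPM in chimeric knockouts and 134 to 153 CPM in controls (0.45 ± 0.09, adjusted p = 0.00327). Without C3 and C4, Mxd4 passed (adjusted p = 0.0117), while Mxd1 (0.0909) and Rb1 (0.0561) did not. Without KO4, C3 and C4, Mxd4 (0.00521), Mxd1 (0.0256) and Rb1 (0.0172) passed. Obfc2a, a single-stranded DNA-binding protein gene, was at 138 to 147 CPM in chimeric knockouts and 89.9 to 109 CPM in controls (0.55 ± 0.10, adjusted p = 0.000731).

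Among lower genes were the unconventional myosin Myo1e, at 58.0 to 94.4 CPM in chimeric knockouts and 123 to 146 CPM in controls (-0.80 ± 0.12, adjusted p = 0.0002), and Gprin3, at 36.7 to 52.7 CPM in chimeric knockouts and 84.9 to 105 CPM in controls (-0.98 ± 0.13, adjusted p = 1.43e-05). The smooth muscle actin gene Actg2 was at 4.52, 5.78, 3.37 and 4.47 CPM in KO1 to KO4, against 19.3, 19.4, 13.9 and 19.5 CPM in C1 to C4 (-1.96 ± 0.28, adjusted p = 7.32e-05). Asb2, a ubiquitin ligase subunit, was at 9.30, 3.33, 6.74 and 2.68 CPM in KO1 to KO4, against 24.3, 15.4, 17.7 and 18.7 CPM in C1 to C4 (-1.80 ± 0.31, adjusted p = 0.000999). In these 8 genes every library of the chimeric knockouts, KO4 included, lay on 1 side of every control. Genes picked for steady calls would mostly show this. Over all genes tested 3.42% had every knockout library above every control and 4.71% below.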
